A study of Mus musculus with 6 samples.

Results

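A set of 10 genes of fatty acid synthesis, elongation and desaturation was followed in LβT2 cells. This mouse cell line stems from gonadotropes of the pituitary, which secrete luteinizing hormone and follicle-stimulating hormone. The genes were the desaturase genes Fads1, Fads2, Fads3, Scd1 and Scd2, the elongase genes Elovl1, Elovl5 and Elovl6, the fatty acid synthase gene Fasn and the ATP citrate lyase gene Acly. Members were chosen by gene symbol in the platform annotation, which gave 18 probes for these 10 of the 19057 genes with a symbol on the array. The changes between the groups in these same arrays were known when the 10 genes were chosen, so the values and calls below describe the genes and support no statement about them as a group.

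Cells had been transfected for 48 h with a scrambled siRNA or with an siRNA labelled Gas, with 3 samples a group, and their RNA was read on Illumina BeadChips that cover the mouse transcriptome. The label Gas was taken to mean Gs alpha, the product of Gnas, which couples receptors to adenylyl cyclase. All 6 samples were of strain CB6F1/J by the labels and were grown in medium with fetal bovine serum, and no group without siRNA was analysed here. Whether the 3 samples were grown separately is not stated by their labels, so the p-values below cover only sample-to-sample spread, possibly technical.

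Fatty acids are built from acetyl-CoA, which ATP citrate lyase makes from citrate and which fatty acid synthase joins into palmitate. Elongases of the ELOVL family lengthen acyl-CoA chains in the endoplasmic reticulum, and desaturases of the SCD and FADS families put double bonds into them, SCD enzymes for monounsaturated and FADS enzymes for polyunsaturated fatty acids. Many of these genes are transcribed under sterol regulatory element binding proteins and liver X receptors, and in secretory cells such as gonadotropes their products enter the membrane phospholipids.

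The files gave processed intensities, 1 per probe and array, from which background had not been subtracted, with a background near 128 and a bound of 143 to 144, the 95th percentile of background. A probe was kept if it lay above that bound on at least 3 of the 6 arrays, which left 21535 of 45281 probes and 14 of the 18 member probes, at least 1 for each of the 10 genes. The 4 probes not kept were 1 of Fads1 (ILMN_1255162), 2 of Fads3 (ILMN_2594672 and ILMN_1234696) and 1 of Elovl6 (ILMN_1228218), each above the bound on 0, 1 or 2 arrays. The brightest Gnas probe (ILMN_2632206) had intensities of 3579 to 3864 with scrambled siRNA and 568 to 608 with Gas siRNA, a log2 change of -2.91 (limma adjusted p = 6.08e-20). Of 7 gonadotrope markers 6 were kept, among them Cga (27531 ± 1656 with scrambled siRNA, SD, n = 3), Gnrhr, Lhb and Nr5a1, and Fshb was above the bound on 0 of 6 arrays. Pitx1, also kept, read 640 ± 18.2 with scrambled siRNA and 756 ± 74.3 with Gas siRNA (SD, n = 3 each). It was higher on every Gas siRNA array (log2 change 0.28, limma adjusted p = 0.291). None of the 6 changed in the limma fit. Of the markers of other anterior pituitary cells only Gh was kept, at 169 ± 17.2 against 153 ± 9.84 (SD, n = 3 each), near background (log2 change -0.45, adjusted p = 0.565). The summed intensity of the 8 such markers on the array was 1004 to 1037 with scrambled siRNA and 996 to 1011 with Gas siRNA, background included. Of 7 adipocyte and hepatocyte markers 2 were kept and of 6 fibroblast and blood cell markers 3, and no marker of these lists changed in the limma fit. Pecam1, a marker of the latter list, read 668 ± 7.37 against 672 ± 45.8 (SD, n = 3 each). That was above background and near Lhb, at 638 ± 21.2 against 651 ± 72.7. The other kept ones, Lep, Apoa1, Pdgfra and Hba-a1, had group means of 143 to 168, and the kept gonadotrope marker Foxl2 had 180 and 179. In a bulk culture fewer cells that express a gene and less of its RNA per cell cannot be told apart.

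Across the 14 kept member probes, Gas siRNA was compared with scrambled siRNA in a limma fit of all kept probes, with Benjamini-Hochberg adjustment over all of them and a threshold of 0.05. Fads1, Fads2 and Scd1 each had 1 probe lower with Gas siRNA, by 1.28-fold, 1.35-fold and 1.33-fold, and no member probe was higher. This was 3 of 14 member probes lower, where 0.683% of all kept probes were lower, 0.529% were higher and 1.21% changed either way. Of the 14 probes 11 had a negative log2 change (49.3% of all kept probes), and 6 had every Gas siRNA array below every scrambled siRNA array (7.47% of all kept probes, with 7.29% the other way), those of Elovl1 counted 3 times. The median log2 change of the member probes was -0.15, beside 0.0039 over all kept probes. Since the genes were chosen with this comparison known, nothing is read from these shares.

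**Figure D1:**
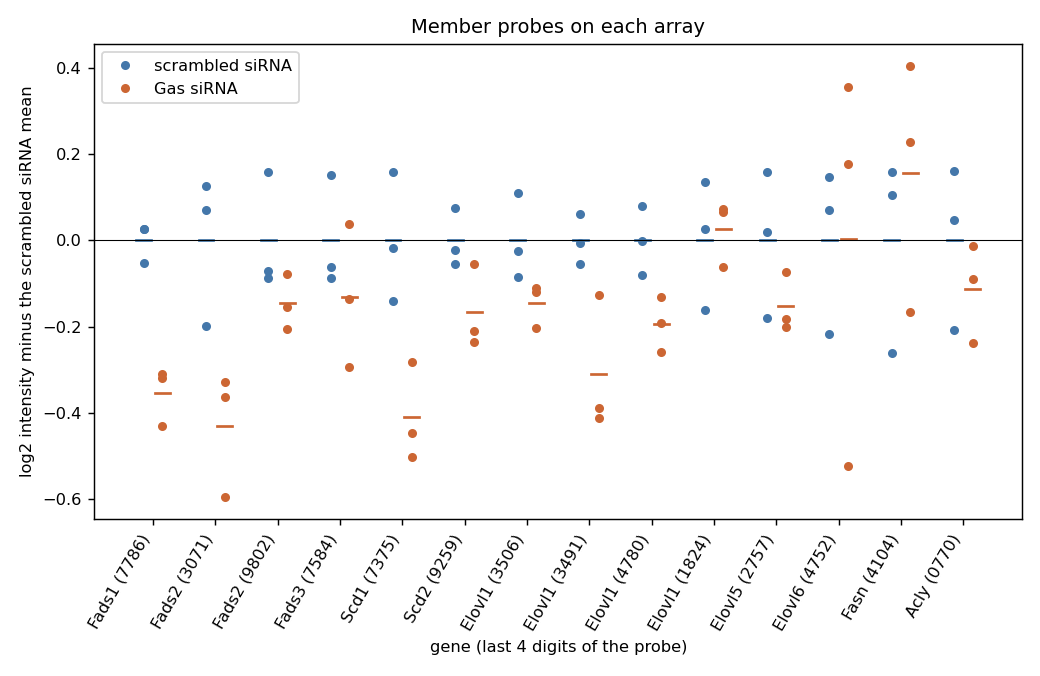
Normalized log2 intensity of each kept member probe on each array, less the mean of the 3 scrambled siRNA arrays of that probe. Points are arrays, short lines are group means and each gene is followed by the last 4 digits of its probe; for Fads1, the brighter Fads2 probe and Scd1 (mean changes -0.35, -0.43 and -0.41) all Gas siRNA points lie below all scrambled siRNA points.

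The polyunsaturated branch is described first. Fads1 encodes the delta-5 desaturase, which makes arachidonic and eicosapentaenoic acid. Its brightest probe (ILMN_2607786, NM_146094) read 16600.1, 15728 and 16600.1 on scrambled siRNA arrays 1, 2 and 3 and 13164, 13082 and 12115 on Gas siRNA arrays 1, 2 and 3. The groups did not overlap, and the gap between them was wider than the spread within either. Both arrays 1 and 3 carried an identical value because the probe had the same rank, 136, on both, as values normalized by quantiles do. The log2 intensity was 13.98 ± 0.045 with scrambled siRNA and 13.63 ± 0.067 with Gas siRNA (SD, n = 3 each), a change of -0.35 (SE 0.0652, 95% interval -0.49 to -0.22, limma adjusted p = 0.00257). Fads1 stayed past the threshold with each of the 6 arrays left out (adjusted p from 0.00598 to 0.0198). A second Fads1 probe, designed to the cDNA AK080706, was not kept and read 139 ± 8.47 and 142 ± 4.17.

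Fads2 encodes the delta-6 desaturase, the entry enzyme of the polyunsaturated pathway. Its brighter probe (ILMN_2713071) read 1597, 1344 and 1655 with scrambled siRNA and 1237, 1210.4 and 1047 with Gas siRNA, so the groups did not overlap, with scrambled siRNA array 2 closest to the Gas siRNA arrays. The log2 change was -0.43 (SE 0.0991, 95% interval -0.63 to -0.23, limma adjusted p = 0.0206). The other Fads2 probe (ILMN_2519802), annotated to the same transcript, NM_019699, read 751, 744 and 861 against 715, 748 and 694. On that probe the groups overlapped and the change of -0.15 (95% interval -0.36 to 0.066) did not pass (adjusted p = 0.711). With both probes averaged the Fads2 change was -0.29 and did not pass (adjusted p = 0.231). The call of the brighter probe was lost without scrambled siRNA array 1 (adjusted p = 0.0948) or 3 (0.153) and without Gas siRNA array 2 (0.0551) or 3 (0.149).

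Fads3, which encodes a desaturase of sphingoid bases, was measured on 1 of its 3 probes (ILMN_3147584). It read 298, 301 and 332 with scrambled siRNA and 315, 292 and 273 with Gas siRNA, with overlapping groups. The log2 change was -0.13 (95% interval -0.42 to 0.16, adjusted p = 0.836). The other Fads3 probes stayed near background, at 118 to 147 and at 108 to 123 over the 6 arrays. Elovl5, the elongase that acts between the FADS desaturation steps, read 7721, 6130.0 and 7020.4 against 6121, 6036 and 6587 (ILMN_2652757). The groups overlapped through scrambled siRNA array 2, which lay within the Gas siRNA range, and the change of -0.15 (95% interval -0.31 to 0.0090) did not pass (adjusted p = 0.537).

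In the monounsaturated branch, Scd1 and Scd2 encode stearoyl-CoA desaturases, which turn stearate and palmitate into oleate and palmitoleate. Scd1 (ILMN_1237375) read 1308, 1083 and 1169 with scrambled siRNA and 897, 992 and 868 with Gas siRNA. Every Gas siRNA array lay below every scrambled siRNA array. The log2 change was -0.41 (SE 0.0995, 95% interval -0.61 to -0.21, limma adjusted p = 0.0305), from 10.06 ± 0.15 to 9.65 ± 0.11 (SD, n = 3 each). The Scd1 call was lost without scrambled siRNA array 1 (adjusted p = 0.173) or 3 (0.0847) and without Gas siRNA array 1 (0.122) or 3 (0.145).

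Scd2, the SCD isoform best known from brain, read 2726, 2911 and 2669 with scrambled siRNA and 2669, 2406 and 2365 with Gas siRNA (ILMN_2919259). The groups met at 1 value, since scrambled siRNA array 3 and Gas siRNA array 1 carried the same intensity, the probe having rank 1737 on both. The log2 change of Scd2 was -0.17 (95% interval -0.33 to -0.0017) and did not pass after adjustment (adjusted p = 0.493). Whether Scd1 and Scd2 differed in their change was not tested.

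Among the elongases of saturated chains, Elovl1, which makes very long chain saturated and monounsaturated fatty acids, had 4 kept probes annotated to 3 transcripts. The brightest (ILMN_3143506, NM_019422) read 1505, 1707 and 1565 with scrambled siRNA and 1481, 1396 and 1471 with Gas siRNA. The pair annotated to NM_001039175 read 631, 674 and 649 against 605, 517 and 523 (ILMN_2723491), and 539, 590 and 563 against 524, 507 and 489 (ILMN_1224780). On these 3 probes every Gas siRNA array was below every scrambled siRNA array, yet none passed: the log2 changes were -0.14, -0.31 and -0.19, with adjusted p of 0.632, 0.241 and 0.594. The probe annotated to NM_001039176 (ILMN_2771824) read 414, 358 and 392 against 375, 401 and 400.2, with overlapping groups and a change of 0.025 (95% interval -0.23 to 0.28). All 4 probes are of 1 gene and the same RNA, so they are not separate observations, and with all averaged the Elovl1 change was -0.16 (adjusted p = 0.605). Elovl6, which lengthens palmitate to stearate, lay at background on its kept probe (ILMN_2614752), at 138, 146 and 148 against 128, 149 and 154, above the bound on 4 of 6 arrays. Its change could not be resolved at this signal (log2 0.0029, 95% interval -0.52 to 0.53). The second Elovl6 probe was above the bound on 0 of 6 arrays, at 121 to 123 and 116 to 117.

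At the start of the pathway, Acly read 7485, 6284 and 8079 with scrambled siRNA and 6163, 7175 and 6809 with Gas siRNA (ILMN_1240770). The groups overlapped, and the change of -0.11 (95% interval -0.28 to 0.056) did not pass (adjusted p = 0.721). Fasn was barely above background on its 1 probe (ILMN_2874104), at 163, 149.7 and 161 against 152, 172 and 165. Its log2 change was 0.16 with a 95% interval from -0.30 to 0.61 (adjusted p = 0.886), so at this signal neither a rise nor a modest fall could be told from no change.

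**Figure D2:**
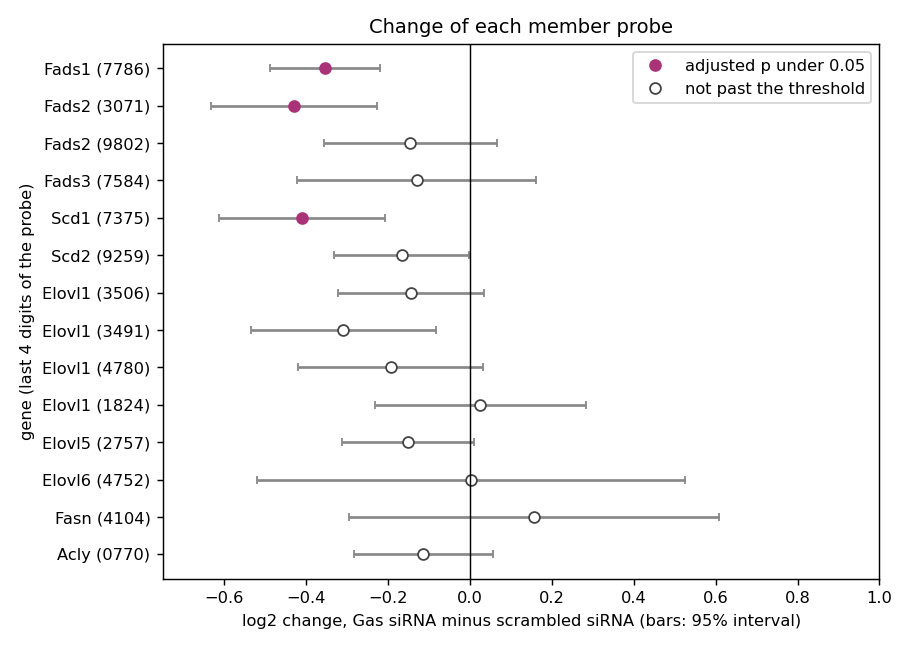
Log2 change of each kept member probe, Gas siRNA minus scrambled siRNA, with its 95% interval from the limma fit. Filled points, those of Fads1 (-0.35), Fads2 (-0.43) and Scd1 (-0.41), passed at an adjusted p under 0.05; the intervals of the dim Fasn and Elovl6 probes are the widest of the 14.

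Arrays of a group did not rank the genes alike. Among the scrambled siRNA arrays, array 2 was lowest for 8 of the 14 probes, including those of Fads1, Fads2, Scd1, Elovl5 and Acly, and highest for Scd2 and 3 of the 4 Elovl1 probes. Among the Gas siRNA arrays, array 3 was lowest for 7 probes, including Fads1, Fads2, Scd1 and Scd2, and highest for Elovl5 and Elovl6. The number of called member probes was 3 in the fit of all arrays and without scrambled siRNA array 2. It was 1, Fads1, without scrambled siRNA array 1 or 3 or Gas siRNA array 3, and 2 without Gas siRNA array 1 or 2. The calls also rested on modelling variance along intensity: without that trend 0 member probes passed, with adjusted p of 0.336, 0.390 and 0.369 for Fads1, Fads2 and Scd1, and 8 of all 21535 probes did, and 5 member probes had an unadjusted p under 0.05 in the fit with the trend, all 5 lower, beside 5.04% of all kept probes lower and 4.99% higher.

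**Figure D3:**
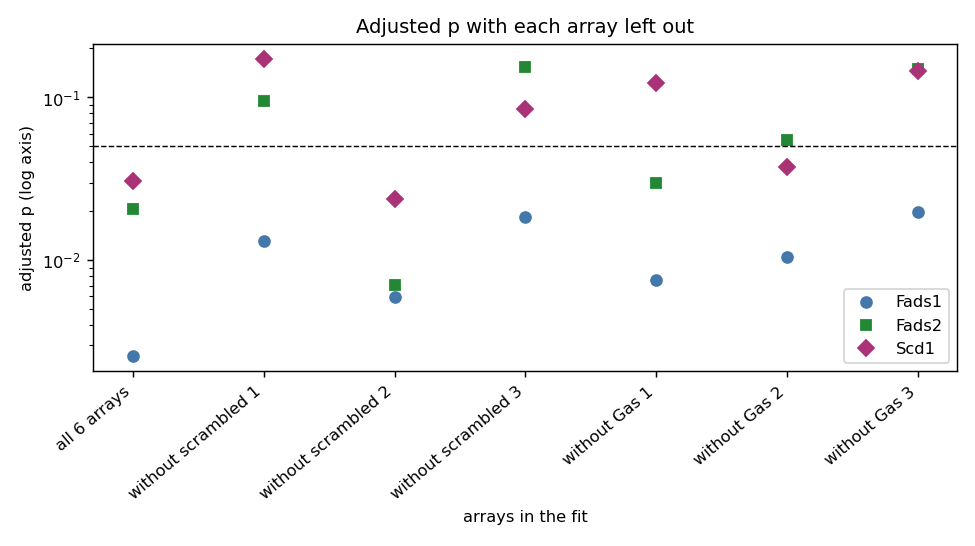
Adjusted p (log axis) of the 3 called member probes in the fit of all 6 arrays and with each array left out; the dashed line is the threshold of 0.05. Fads1 lies under the line throughout, between 0.00257 and 0.0198, while Fads2 and Scd1 each lie above it in 4 of the 6 fits without 1 array.

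Position and promoter sequence were read next. Of the 10 genes 5, namely Fads1, Fads2, Fads3, Scd1 and Scd2, lie on chromosome 19 in the RefSeq table of GRCm38.p6, the 3 FADS genes as neighbours and Scd1 and Scd2 in a group with Scd3 and Scd4. All 3 called genes are thus on chromosome 19, where 1.94% of 413 measured genes were lower, these 3 among them. Of all 11442 measured genes 0.979% were lower. Since the 10 genes were chosen with their changes known and 5 lie on this chromosome, nothing is read from that share. Of the 10 protein-coding genes next to the FADS genes, 5 on each side, 6 were measured, 0 changed in the limma fit and 2 had a negative change (median log2 change 0.068). They included Fth1, the ferritin heavy chain gene (-0.034), and Fen1, the flap endonuclease gene (0.087). Of the 11 genes beside or between Scd1 and Scd2, 6 were measured, 0 changed and 4 had a negative change, with a median of -0.040. A negative change was seen in 50.1% of all measured genes. Scd4, the gene between them, was lower on every Gas siRNA array but near background and did not pass (-0.29, adjusted p = 0.755), and Scd3 was above the bound on 0 of 6 arrays.

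RefSeq promoter windows, 250 bases before to 50 after a start site, were at hand for Fads2, Fads3, Elovl1 (2 starts), Elovl5, Elovl6, Fasn and Acly, 8 windows in all. Those of Fads2, the called gene with a window, of its neighbour Fads3 and of Elovl5 are shown because they differ in the motifs they hold. Capitals mark matches, on either strand, to CCAAT (the NF-Y box), GGGCGG (the GC box of Sp1), CACGTG (an E-box), TGACGTCA (the cAMP response element, CRE, which contains the shorter site TGACG) and TCACNCCAC (a sterol response element).
Fads2, GRCm38.p6 chr19:10101454-10101753, minus strand: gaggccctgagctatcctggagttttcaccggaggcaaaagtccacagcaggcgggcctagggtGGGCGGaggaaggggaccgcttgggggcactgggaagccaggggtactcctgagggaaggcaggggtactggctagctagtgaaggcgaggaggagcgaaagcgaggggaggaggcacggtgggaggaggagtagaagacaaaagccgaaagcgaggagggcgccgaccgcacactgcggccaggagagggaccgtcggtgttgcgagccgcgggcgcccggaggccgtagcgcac
Fads3, GRCm38.p6 chr19:10041298-10041597, plus strand: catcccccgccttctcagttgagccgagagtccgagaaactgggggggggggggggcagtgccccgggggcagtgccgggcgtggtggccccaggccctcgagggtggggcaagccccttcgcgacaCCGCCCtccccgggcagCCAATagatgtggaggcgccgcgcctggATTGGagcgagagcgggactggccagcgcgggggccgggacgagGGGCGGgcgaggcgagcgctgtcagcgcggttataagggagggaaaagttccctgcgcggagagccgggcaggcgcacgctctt
Elovl5, GRCm38.p6 chr9:77917115-77917414, plus strand: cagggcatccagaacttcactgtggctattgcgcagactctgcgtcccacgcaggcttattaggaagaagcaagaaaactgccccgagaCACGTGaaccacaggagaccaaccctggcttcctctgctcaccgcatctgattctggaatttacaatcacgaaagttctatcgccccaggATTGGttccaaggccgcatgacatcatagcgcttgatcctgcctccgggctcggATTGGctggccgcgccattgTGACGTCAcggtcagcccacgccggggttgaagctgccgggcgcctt

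The Fads2 window held 1 GC box, 186 bases before the start, and no CCAAT. The Fads3 window held CCAAT on both strands, 106 and 78 bases before the start, and 2 GC boxes. The Elovl5 window held CCAAT on the opposite strand at 2 places, an E-box 161 bases before the start and a CRE beginning 3 bases after the first transcribed base. Of the 8 member windows 5 held CCAAT, beside 37.4% of 32851 windows of the same length. GGGCGG was in 5 (35.7%), with the 2 Elovl1 windows counted separately, CACGTG in 1 (7.15%) and TGACGTCA in 1 (1.79%). The shorter site TGACG was in 1 of the 8, within the CRE of Elovl5, and in 20.8% of all windows. The letters TCACNCCAC were in 0 of the 8 windows and in 1.24% of all, and TCACCCCAC, which they include, was in 0 of the 8 and in 0.551% of all. The liver X receptor direct repeat (DR4) was in 0 of the 8 and in 0.0152% of all. These matches describe the letters of the windows, not binding. Whether they bear on the changes with Gas siRNA was not tested, and no window was at hand for the called genes Fads1 and Scd1.

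Other genes of fatty acid handling and cholesterol synthesis, with lipogenic regulators, were read from 6 lists with 127 genes. Of these 100 were measured, each on its brightest kept probe. On that probe 3 fell (3.00%), Lpcat3, Acsl4 and Cs, and 0 rose, where 0.979% of all 11442 measured genes were lower and 0.734% higher. Over all 157 kept probes of these genes 3 passed as lower, the same 3 genes, and 2 as higher, both of Etfa, a fatty acid oxidation gene described below. Every Gas siRNA array was below every scrambled siRNA array for 21 of the 100 and above for 7, beside 8.38% and 7.73% of all genes. At an unadjusted limma p under 0.05, 14 of the 100 were lower and 3 higher, beside 5.65% and 5.68% of all genes. The lists too were chosen with earlier results of these data known. Nothing is therefore read from these shares, or from those of single lists below.

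Acyl-CoA activation and lipid assembly genes held 2 of the 3 falls. Lpcat3, an acyltransferase that places polyunsaturated chains into phospholipids, read 2058, 2196 and 1782 with scrambled siRNA and 1522, 1623 and 1290.2 with Gas siRNA. The groups did not overlap, and the log2 change was -0.48 (SE 0.0980, limma adjusted p = 0.00823). Its second kept probe did not pass (-0.21), and the Lpcat3 call was lost without scrambled siRNA array 2 (adjusted p = 0.0686) or Gas siRNA array 3 (0.0782) and with its probes averaged (0.398). Acsl4, an acyl-CoA synthetase that prefers arachidonic acid, read 539, 555 and 564 against 431, 435 and 386, a change of -0.53 (SE 0.116, limma adjusted p = 0.0131). The other 2 Acsl4 probes, both dimmer, did not pass (0.052 and 0.10), and averaging all 3 ended the call (adjusted p = 0.823). So did leaving out scrambled siRNA array 2 (0.0506) or 3 (0.0682) or Gas siRNA array 3 (0.0960). Of the list's 21 measured genes 19 did not pass, 15 had a negative change and the median was -0.12. At an unadjusted limma p under 0.05, 5 of the 21 were lower and 0 higher.

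Among the other fatty acid synthesis genes, Cs, the mitochondrial citrate synthase whose product feeds Acly, read 2269, 1919 and 2100 with scrambled siRNA and 1615, 1565 and 1711 with Gas siRNA. The groups did not overlap and the log2 change was -0.38 (SE 0.0869, limma adjusted p = 0.0182). The Cs call was lost without scrambled siRNA array 1 (adjusted p = 0.111) or 3 (0.0712) and without Gas siRNA array 1 (0.0759) or 2 (0.118). The other 9 of the list's 10 measured genes did not pass, 6 of the 10 had a positive change, and the list's median was 0.030. At an unadjusted limma p under 0.05, 3 of the 10 were lower and 0 higher. Acaca, the acetyl-CoA carboxylase gene named here after its value was seen, was above the bound on 0 of 6 arrays.

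None of the other desaturation and elongation genes (14 measured, median -0.062), lipogenic regulators (21, median -0.073), fatty acid oxidation genes (20, median 0.052) or cholesterol synthesis genes (14, median -0.096) passed in the limma fit on its brightest probe. At an unadjusted p under 0.05, 1, 2, 1 and 2 genes of these lists were lower and 1, 1, 1 and 0 higher, beside 5.65% of all genes lower and 5.68% higher. The smallest p of each list belonged to Fads6 (0.24, adjusted p = 0.216), Scap, the escort protein of the sterol regulatory element binding proteins (0.29, 0.256), Etfdh, which passes electrons from fatty acid oxidation to ubiquinone (0.25, 0.216), and Sqle, squalene epoxidase (-0.30, 0.0703). Etfa, the alpha subunit of the electron transfer flavoprotein of fatty acid oxidation, is named here after its values were seen. Its brightest probe (ILMN_2649966) had overlapping groups and did not pass (0.088, adjusted p = 0.759), while both of its other kept probes rose. One (ILMN_2800655) read 2975, 2192 and 2324 with scrambled siRNA and 3026, 3068 and 3646 with Gas siRNA, a log2 change of 0.40 (SE 0.0984, limma adjusted p = 0.0324). The other (ILMN_1237075) read 2668, 2362 and 2180.2 against 2929, 3097 and 3049, a change of 0.35 (SE 0.0837, limma adjusted p = 0.0271). The groups did not overlap on either, and with the 3 probes averaged the Etfa change of 0.28 did not pass (adjusted p = 0.152). Both calls were lost without scrambled siRNA array 2 (adjusted p = 0.218 and 0.0886) or 3 (0.172 and 0.209) and without Gas siRNA array 2 (0.0730 and 0.141) or 3 (0.198 and 0.0868), and that of ILMN_1237075 also without Gas siRNA array 1 (0.0597). A negative change was seen in 9 of 14, 11 of 21, 8 of 20 and 12 of 14 genes of these lists, beside 50.1% of all genes. The Srebf1 transcript, which encodes the main lipogenic member of that transcription factor family and is named here after its value was seen, read 374 ± 23.8 with scrambled siRNA and 344 ± 35.7 with Gas siRNA (SD, n = 3 each). Its groups overlapped and the change of -0.18 (95% interval -0.46 to 0.099) did not pass (adjusted p = 0.738).

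**Figure D4:**
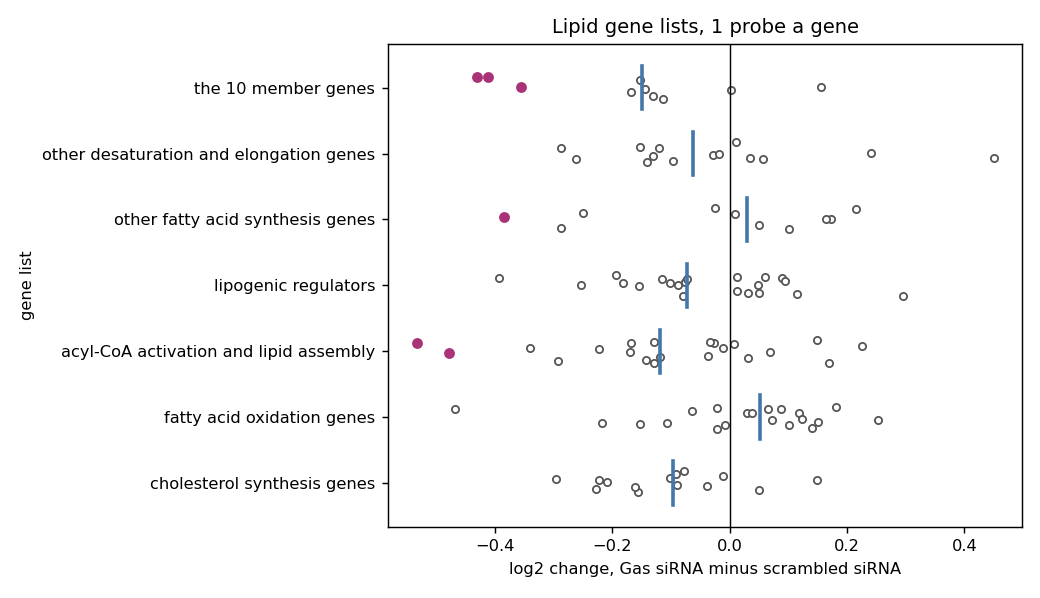
Log2 change, Gas siRNA minus scrambled siRNA, of each measured gene of the 10 members and of 6 other lipid lists, on the brightest kept probe of each gene. Filled points passed at an adjusted p under 0.05 and blue bars are list medians, which run from -0.15 for the members to 0.052 for fatty acid oxidation; height within a row has no meaning.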

How the data were processed

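Total RNA of 6 LβT2 samples was labelled with biotin and hybridised to Illumina BeadChips, per the labels' protocols. The deposited values were linear intensity values. The submitters' processing notes name BeadStudio, and how the authors normalized the arrays was not given in the sources used. When sorted, the columns differed by at most 1.67% below the 10 brightest probes, as after quantile normalization. A second table, with 24 columns of chip positions that match no sample's labels, was not used, so neqc and detection p-values were not run.

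Here each array's background mean was the mode of its log2 density (128) and its SD came from the values below it. Normexp with an offset of 16, quantile normalization and log2 followed. The comparison of the groups used limma 3.58.1 under R 4.3.3 (lmFit, eBayes with an intensity trend, 2-sided, Benjamini-Hochberg over 21535 probes). Only this fit, without background correction or normalization, was also run on simulated independent normal values. That run was a check of the code and does not bear on the calls. Symbols came from the platform annotation, and RefSeq gene numbers changed 0 of them. Lists used each gene's brightest kept probe. From each list the called genes were named, or the gene with the smallest p. The members and lists were chosen with earlier results of these data known. Same-numbered arrays of both groups had correlations of deviations of 0.017, 0.060 and 0.096, and different-numbered ones from -0.081 to 0.023. No pairing is stated by the labels, so arrays were not taken as pairs. A fit with the replicate number as a block is given below. The number of arrays limits precision.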

Additional observations from a re-analysis of the deposited data

How the results depend on the processing

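With all 6 arrays 3 member probes (Fads1, Fads2 and Scd1) and 3 genes of the other lipid lists (Lpcat3, Acsl4 and Cs) were called. Both counts stayed at 3 with no further background correction, an offset of 50, median scaling, no filter, the filter on all 6 arrays and array weights. Without the intensity trend both counts were 0, while all kept probes called went from 261 to 8. With the replicate number as a block the counts were 3 and 4, the fourth gene being Sqle, and probes called rose from 261 to 427; no member call changed. Leaving out single arrays gave 1 to 3 member probes and 1 to 2 other genes. Without scrambled siRNA array 2 these other genes were Cs and Sqle, which was not called with all 6 arrays (limma adjusted p = 0.0362 for Sqle without that array). With the probes of a gene averaged 1 other gene, Cs, passed, as did Fads1 among the members, but not Fads2 or Scd1 (adjusted p = 0.0570). Scd1 had only 1 probe, so averaging left its change at -0.41. For Scd1 only the fit and adjustment, then over 15077 genes or probes, differed. Counting a gene as called on any of its kept probes, an alternative chosen after seeing the data, gave 4 other genes, with Etfa higher; both its probes lost the call with no filter (adjusted p = 0.0606 and 0.0516) and without the trend. The causes were not tested.

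Changes of sign occurred on 2 uncalled probes. The Elovl6 change, 0.0029, was -0.0099 with no further background correction, -0.013 with array weights, and from -0.17 to 0.27 over the fits without 1 array. The Elovl1 probe ILMN_2771824 ranged from -0.055 to 0.093 over those fits. Elovl6 had no value under the filter on all 6 arrays. Signal near background limits Elovl6 and Fasn.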
